A study of Arabidopsis thaliana with 15 samples.

Results

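In hypocotyl explants of Arabidopsis thaliana (accession Col-0), 17 of 33602 annotated genes stood out after 4 days on shoot-inducing medium (SIM) at 27 °C. These were near silent in every other group, though each held some counts outside SIM at 27 °C. They were chosen on CPM, the count divided by the library's total and multiplied by 1000000, averaged over the 3 libraries of a group. A member had a mean of at least 4 CPM after SIM at 27 °C and at most 1 CPM in each of the other 4 groups. Of all genes, 27260 had a count in some library, 18092 met the lower limit and 11543 met the upper one. The same rule turned on the other groups took 270 genes for explants at 0 h, 35 for callus-inducing medium (CIM) at 17 °C, 3 for CIM at 27 °C and 20 for SIM at 17 °C.

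The explants were cut from 7-day-old seedlings raised in darkness at 22 °C, and about 100 explants were pooled into each of 15 samples, 5 groups of 3. The groups were explants at 0 h (22 °C), explants after 4 days on CIM at 17 °C or at 27 °C, and explants after 4 days on CIM and 4 more on SIM at 17 °C or at 27 °C, the last 4 groups in continuous light. CIM carried kinetin at 0.1 mg/L and 2,4-D at 0.5 mg/L, and SIM carried 2-iP at 0.5 mg/L and IAA at 0.15 mg/L. All plants were of the wild-type accession. Each SIM sample has 1 labelled temperature, and that of its CIM step cannot be told apart from that of its SIM step. Library totals ran from 3427707 to 4446863 counts, and from 4140425 to 4319405 after SIM at 27 °C. At this depth 3 counts over the 3 libraries of a group, used as the floor, stand for 0.237 to 0.270 CPM. Whether the samples of a group are separate cultures is not labelled; every p-value here then reflects sample-to-sample spread alone, possibly technical. At 0 h, 6 seed maturation transcripts summed to 2.43 CPM in 1 library and up to 855 CPM in another, and the set of members was the same with any 0 h library left out. Libraries 1 and 3 of CIM at 27 °C differed by less than the sampling noise (mean chi-square per gene 0.717, with 0 genes past the threshold) and may be 1 sample. Other pairs were as close, among them libraries 1 and 2 of SIM at 27 °C (0.701, 3 genes) and 1 and 3 of SIM at 17 °C (0.717, 2 genes). The measure thus does not single out the CIM pair. Counted as 1, libraries 1 and 3 of CIM at 27 °C gave 17 genes by the rule, of which 16 were members and AGO9 was lost.

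In shoot regeneration from Arabidopsis explants, auxin-rich callus medium first makes a pluripotent callus with root-like features, and cytokinin-rich shoot medium then lets shoot meristems form in it. A shoot meristem needs the homeodomain factors WUSCHEL (WUS), which specifies stem cells, and SHOOT MERISTEMLESS (STM), which keeps cells undifferentiated. CUP-SHAPED COTYLEDON (CUC) factors mark the boundaries between the meristem and its organs and are needed for STM expression, and genes at the flank of the meristem such as CYP78A5 govern the growth of the organs that arise there.

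Among the 17 members were STM, the boundary genes CUC3 and LSH4, the LSH4 relative LSH2, the organ growth gene CYP78A5, the receptor kinase gene ERL1 and the small RNA effector AGO9. Their summed counts were 26 at 0 h, 30 after CIM at 17 °C, 44 after CIM at 27 °C, 92 after SIM at 17 °C and 2391 after SIM at 27 °C. The summed CPM of the members was 205, 167 and 194 in libraries 1, 2 and 3 of SIM at 27 °C and 7.69, 5.16 and 10.2 in those of SIM at 17 °C. All 17 had their 3 libraries of SIM at 27 °C above the 12 other libraries, as did 9.13% of the 20704 genes that passed a filter on low counts; by edgeR, 43.6% of these genes differed between the SIM groups. The rule used these means, so this is a description of the choice and no test of it. In bulk samples, fewer cells of a type and less RNA per cell cannot be told apart.

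The 4 members that stand on lists of meristem, boundary or organ growth genes are shown with the 250 bases before their annotated start, because these promoters belong to the genes the group is known by. The sequences were read from the RefSeq assembly TAIR10.1 and run 5′ to 3′ on the strand of the gene. Capitals mark matches to the motifs searched. In CYP78A5 these are CCATTAA, the reverse complement of TTAATGG (bound by WUS), at 131 and 66 bases before the start, and, between these, CCATTG, a match to CCANTG (the LEAFY core). In CUC3 they are a match to the outer bases of the CArG box of MADS factors, CC and GG with 6 bases of any kind between them, 96 bases before the start. The STM and LSH4 stretches hold none of the 9 motifs.
STM (chr1:23062064-23062313, minus strand): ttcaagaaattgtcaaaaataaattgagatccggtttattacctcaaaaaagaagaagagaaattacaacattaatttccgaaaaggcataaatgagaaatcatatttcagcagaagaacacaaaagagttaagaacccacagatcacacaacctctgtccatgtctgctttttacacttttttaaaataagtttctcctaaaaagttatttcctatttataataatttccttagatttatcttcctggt
CUC3 (chr1:28674046-28674295, minus strand): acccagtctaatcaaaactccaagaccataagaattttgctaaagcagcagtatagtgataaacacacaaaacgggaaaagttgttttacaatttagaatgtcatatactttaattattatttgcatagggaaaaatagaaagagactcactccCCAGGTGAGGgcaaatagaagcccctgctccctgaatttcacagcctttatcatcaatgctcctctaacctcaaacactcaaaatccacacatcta
LSH4 (chr3:8326378-8326627, plus strand): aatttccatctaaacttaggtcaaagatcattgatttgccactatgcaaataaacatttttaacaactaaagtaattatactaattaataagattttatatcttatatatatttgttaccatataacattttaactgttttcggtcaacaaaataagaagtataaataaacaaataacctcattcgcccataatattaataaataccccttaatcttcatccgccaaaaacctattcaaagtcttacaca
CYP78A5 (chr1:4704695-4704944, minus strand): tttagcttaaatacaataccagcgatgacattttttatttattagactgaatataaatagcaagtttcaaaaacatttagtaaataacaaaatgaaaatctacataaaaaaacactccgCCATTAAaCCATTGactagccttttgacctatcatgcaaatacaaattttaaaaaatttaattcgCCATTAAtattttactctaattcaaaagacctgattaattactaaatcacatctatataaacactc

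STM (AT1G62360, chromosome 1, 23058582 to 23061722 in the TAIR10 coordinates of the deposited table) encodes the KNOX homeodomain factor that keeps meristem cells from differentiating. It had 30, 27 and 33 counts in libraries 1, 2 and 3 of SIM at 27 °C, which is 6.95, 6.52 and 7.86 CPM. In the same library order, SIM at 17 °C held 0, 1 and 0 counts, CIM at 27 °C 0, 0 and 0, CIM at 17 °C 1, 1 and 1, and 0 h explants 0, 0 and 1. The 5 counts outside SIM at 27 °C were thus spread over 5 libraries, and 94.7% of all STM counts lay in that group. The ratio to SIM at 17 °C rests on 1 count there and was 84.4-fold with a 95% counting interval of 14.8 to 3371, which leaves its size poorly known. Against CIM at 27 °C, with 0 counts, STM was at least 29.7-fold higher, a bound set by the floor and not comparable with that ratio. Such ratios are of CPM over a group. Reads amplified by PCR and carrying no molecular identifiers are not separate molecules, and these intervals and the floor cover counting error only. The intervals do not allow for the choice of the members on these same counts.

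CUC3 (AT1G76420, chromosome 1, 28672029 to 28673934), a NAC factor of organ boundaries, held 20, 26 and 33 counts after SIM at 27 °C, or 4.63, 6.28 and 7.86 CPM. SIM at 17 °C held 4, 1 and 3 counts, CIM at 27 °C 0, 2 and 2, CIM at 17 °C 0, 0 and 0, and 0 h explants 1, 1 and 0. The gene was thus not at 0 at 17 °C on SIM, and its ratio between the SIM groups, 9.26-fold (4.48 to 22.2), was among the smaller ones of the group.

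LSH4 (AT3G23290, chromosome 3, 8326825 to 8328132) encodes a nuclear protein of the ALOG family that is expressed at shoot organ boundaries and acts downstream of CUC factors. It held 96, 85 and 91 counts after SIM at 27 °C, or 22.2, 20.5 and 21.7 CPM, against 4, 0 and 4 counts after SIM at 17 °C. CIM at 27 °C held 0, 0 and 3, CIM at 17 °C 0, 1 and 2, and 0 h explants 1, 2 and 0. The 3 libraries of SIM at 27 °C lay close together, with a coefficient of variation of 4.03%. LSH2 (AT3G04510, chromosome 3, 1215636 to 1216958), of the same family, had 87, 78 and 84 counts there, or 20.1, 18.8 and 20.0 CPM. The other libraries held 0, 1 and 1 counts after SIM at 17 °C, 3, 0 and 2 after CIM at 27 °C, 0, 0 and 1 after CIM at 17 °C and 0, 0 and 2 at 0 h. LSH2 had the lowest coefficient of variation of all members, 3.64%. The variance over the libraries of SIM at 27 °C was 0.109 times that of counting for LSH2 and 0.146 times for LSH4. Both lay closer together than counting alone would give. The ratio of LSH2 between the SIM groups, which rests on 2 counts at 17 °C, was 117-fold (32.0 to 970). That of LSH4 was 31.9-fold (16.0 to 74.6), and the intervals overlap.

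CYP78A5 (AT1G13710, chromosome 1, 4702725 to 4704657), also known as KLUH, encodes a cytochrome P450 that acts from the flank of the meristem to prolong organ growth. It was the most abundant member, with 225, 146 and 172 counts after SIM at 27 °C, or 52.1, 35.3 and 41.0 CPM. All 9 libraries at 0 h and on CIM held 0 counts, and SIM at 17 °C held 4, 1 and 4. CYP78A5 was at least 179-fold higher than after CIM at 27 °C and 56.6-fold (29.6 to 124) higher than after SIM at 17 °C. Its mean of 42.8 CPM stood above 64.4% of the 23664 genes with a count after SIM at 27 °C. The spread among the 3 libraries was 7.25 times that of counting, the widest of the members by this measure.

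ERL1 (AT5G62230, chromosome 5, 24996129 to 25002340) encodes a leucine-rich repeat receptor kinase of the ERECTA family, which controls organ growth and stomatal spacing. It held 25, 20 and 16 counts after SIM at 27 °C, or 5.79, 4.83 and 3.81 CPM, and between 0 and 4 counts in each other library. AGO9 (AT5G21150, chromosome 5, 7192239 to 7198324) encodes an ARGONAUTE, a protein that binds small RNAs, and is best known from ovules, where it limits which cells become gamete precursors. It held 57, 60 and 77 counts after SIM at 27 °C, or 13.2, 14.5 and 18.3 CPM. The other libraries held 4, 2 and 5 after SIM at 17 °C, 1, 7 and 3 after CIM at 27 °C, 2, 1 and 1 after CIM at 17 °C and 0, 0 and 0 at 0 h. Library 2 of CIM at 27 °C, at 1.79 CPM, was the highest value of any member outside SIM at 27 °C. That library had 24396 genes with a count, against 22350 and 22343 in libraries 1 and 3 of its group. Without it 20 genes met the rule, all 17 members among them. The part of its additional low counts in the choice of members was not tested further. AGO9 also lay nearest to the upper limit of the rule, and it left the group when library 1 or 3 of CIM at 27 °C or library 2 of SIM at 17 °C was left out.

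**Figure D1:**
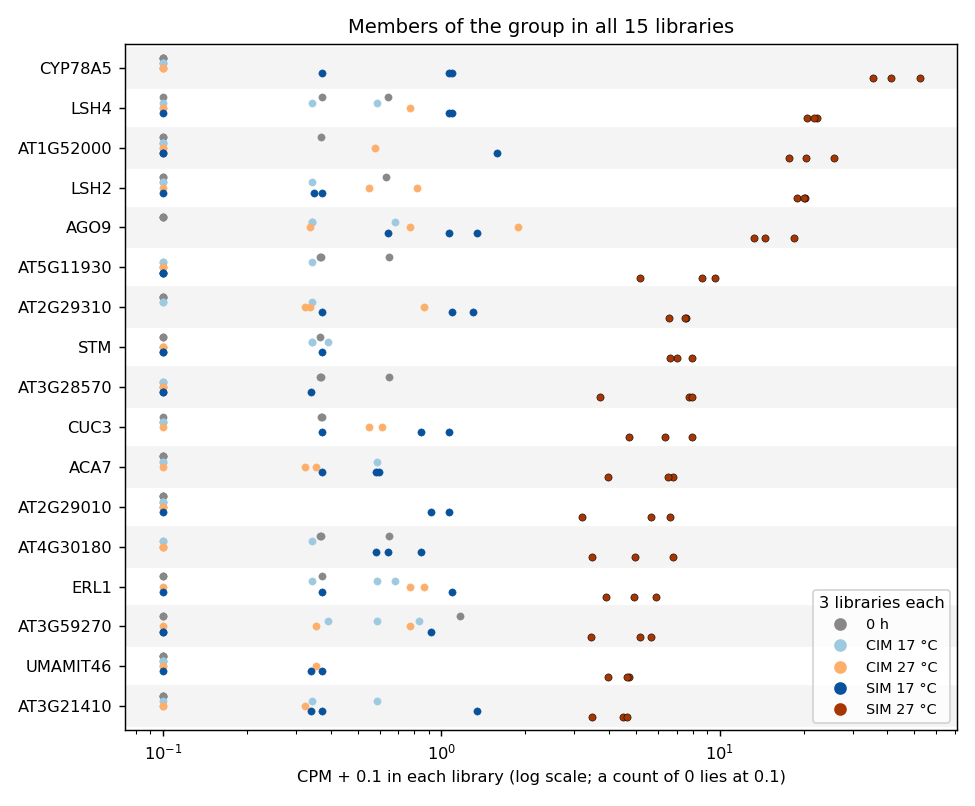
Level of each of the 17 members in all 15 libraries, as CPM + 0.1 on a log axis, with a count of 0 at 0.1. Points are libraries, coloured by group. The libraries of SIM at 27 °C lie between 3.10 and 52.1 CPM, and no other library passes 1.79 CPM.

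AT1G52000 (chromosome 1, 19333159 to 19336115) is annotated as a mannose-binding lectin. It held 111, 73 and 85 counts after SIM at 27 °C, or 25.7, 17.63 and 20.2 CPM. SIM at 17 °C held 0, 0 and 6 counts, so that 1 library carried all of its counts there. CIM at 27 °C held 2, 0 and 0, CIM at 17 °C 0, 0 and 0, and 0 h explants 0, 1 and 0. AT5G11930 (chromosome 5, 3844940 to 3845645), of the thioredoxin superfamily, held 37, 21 and 40 counts, or 8.57, 5.07 and 9.52 CPM, after SIM at 27 °C. It was the only member with 0 counts in all 3 libraries of SIM at 17 °C. It had 0, 0 and 0 after CIM at 27 °C, 0, 0 and 1 after CIM at 17 °C and 2, 1 and 1 at 0 h, and against SIM at 17 °C it was at least 30.6-fold higher.

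AT2G29310 (chromosome 2, 12590058 to 12591363), an NAD(P)-binding protein of the Rossmann-fold superfamily, held 28, 31 and 31 counts after SIM at 27 °C, or 6.48, 7.49 and 7.38 CPM. SIM at 17 °C held 5, 1 and 4, CIM at 27 °C 1, 3 and 1, CIM at 17 °C 0, 0 and 1, and 0 h explants 0, 0 and 0. Its ratio between the SIM groups was 8.44-fold (4.39 to 18.21), and it left the group when library 2 of SIM at 17 °C was left out. AT3G28570 (chromosome 3, 10710534 to 10711889), of the P-loop nucleoside triphosphate hydrolases, held 33, 15 and 33 counts after SIM at 27 °C, or 7.64, 3.62 and 7.86 CPM. SIM at 17 °C held 1, 0 and 0, both CIM groups 0 in all 6 libraries, and 0 h explants 2, 1 and 1. Library 2 of SIM at 27 °C lay well below the other 2, and the coefficient of variation, 37.4%, was the highest of the members.

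ACA7 (AT1G08080, chromosome 1, 2516991 to 2518546), an alpha carbonic anhydrase, which interconverts carbon dioxide and bicarbonate, held 29, 16 and 27 counts after SIM at 27 °C, or 6.71, 3.86 and 6.43 CPM. SIM at 17 °C held 2, 1 and 2, CIM at 27 °C 0, 1 and 1, CIM at 17 °C 0, 0 and 2, and 0 h explants 0, 0 and 0. Each of its 3 high libraries stood above every other library, and the ratio between the SIM groups was 13.5-fold (5.53 to 42.9). UMAMIT46 (AT3G28070, chromosome 3, 10447922 to 10451034), of the UMAMIT family of amino acid transporters, had a mean of 4.34 ± 0.415 CPM (SD, n = 3) after SIM at 27 °C and 3 counts in the 12 other libraries together.

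The remaining members were a pseudogene, a gene for an uncharacterized protein and genes with an F-box or FBD-like domain. AT2G29010 (chromosome 2, 12465764 to 12469464), annotated as a pseudogene, held 24, 27 and 13 counts after SIM at 27 °C, or 5.56, 6.52 and 3.10 CPM, and 4, 3 and 0 after SIM at 17 °C. It had 0 counts in all 9 libraries at 0 h and on CIM, as CYP78A5 did. AT4G30180 (chromosome 4, 14768936 to 14769648), an uncharacterized protein, had 4.97 ± 1.65 CPM (SD, n = 3) after SIM at 27 °C and 7 counts over SIM at 17 °C. AT3G59270 (chromosome 3, 21906593 to 21907872), with an FBD-like domain, had 4.65 ± 1.17 CPM (SD, n = 3) there and had the lowest share of its counts in SIM at 27 °C, 77.6%. AT3G21410 (chromosome 3, 7536719 to 7537951), an F-box protein, had 4.10 ± 0.627 CPM (SD, n = 3) and left the group without library 1 or 3 of SIM at 27 °C and with either other scaling tried. The F-box and FBD genes, the Rossmann-fold array and the pseudogene have close copies, and the labels leave out how reads that fit several places were treated, so the split of counts among the copies is uncertain. None of the 17 members overlaps another gene in the deposited table.

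Counts between genes can be compared only per length. Per kilobase of annotated exon, the mean level after SIM at 27 °C was 22.1 CPM for CYP78A5, 14.8 for LSH2, 14.7 for LSH4 and 10.001 for AT5G11930. STM, at 4.17 CPM per kilobase, and CUC3, at 4.35, lay close to each other, AGO9 stood at 4.99, and ERL1 was the lowest member at 1.37. By this scale CYP78A5 exceeded STM, CUC3 and ERL1 in the same libraries. CYP78A5 has 2 annotated exons, STM 4, CUC3 3 and ERL1 27, and reads across exon junctions may have been lost in alignment. The part of exon number in this order was not tested.

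SIM at 17 °C was the next highest group for 11 of the 17 members, while CIM at 27 °C was for 2, 0 h for 2 and CIM at 17 °C for 2. Among members with more than 3 counts over the group compared, the ratio of SIM at 27 °C to SIM at 17 °C ran from 6.97-fold to 56.6-fold in 11 members, and the lower bound of the counting interval was 3.15 or more in every member that had a count. Against CIM at 27 °C it ran from 10.08-fold to 49.4-fold in 6 members, and 6 others had 0 counts in that group. AT3G21410 had the smallest ratio between the SIM groups, at 52 counts against 7. The rule set high ratios in advance, so these ratios and bounds describe the choice and do not test it.

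**Figure D2:**
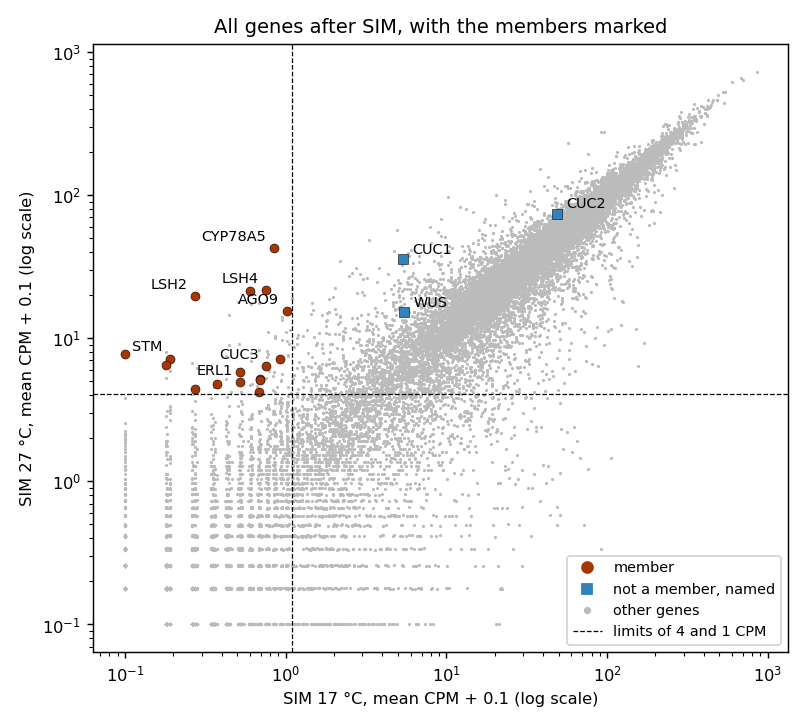
Mean level of each gene after SIM at 17 °C (horizontal) and at 27 °C (vertical), as CPM + 0.1 on log axes, with dashed lines at the limits of 1 and 4 CPM. The 17 members fill part of the upper left field, whose other genes pass 1 CPM at 0 h or on CIM; CUC1, CUC2 and WUS lie right of it, at 5.30, 48.9 and 5.36 CPM at 17 °C.

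The limits of the rule cut through a continuous range of values. Just inside the lower limit lay AT3G21410, UMAMIT46 and AT3G59270, at 4.10, 4.34 and 4.65 CPM after SIM at 27 °C. Just under it lay AT2G37900 at 3.99 CPM, MCT2 (AT5G07930) at 3.95 CPM and AT3G50270 at 3.71 CPM, each with 3 counts or fewer in any other group. Nearest to the upper limit among the members were AGO9, AT2G29310 and CYP78A5, whose highest mean in another group was 0.915, 0.822 and 0.741 CPM. Just over it lay AT3G06880, at 1.0003 CPM after SIM at 17 °C and 21.9 CPM after SIM at 27 °C, and HYR1 (AT3G21760) and AT3G21755, which overlap on opposite strands so that their reads may not be told apart, both at 1.03 CPM after CIM at 27 °C and at 13.4 and 14.1 CPM after SIM at 27 °C. With the limits required of every library, 6 members were left, namely CYP78A5, LSH4, LSH2, AT5G11930, STM and CUC3.

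The spread between the libraries of SIM at 27 °C differed widely among members. The variance of a member's CPM over the 3 libraries was a median of 1.78 times that of counting, against 0.561 for the 9679 genes whose mean lay in the members' range, and it was above 1 for 10 members (58.8%, against 29.6% of those genes). The coefficient of variation had a median of 20.0% and ran from 3.64% to 37.4%. Library 2 held the lowest value for 11 of the 17 members (64.7%, against 36.6% of the 9679 genes), among them CYP78A5, AT1G52000, AT5G11930, AT3G28570 and ACA7. It held the lowest value of LSH2, LSH4 and STM too, but by small margins, and the highest for AT2G29310 and AT2G29010. WUS, no member, was also lowest there, at 12.3 CPM against 17.1 and 16.0 CPM in libraries 1 and 3. Library 2 had 22431 genes with a count, against 22473 and 22422 in the others. The part of library 2 in the members' means was not tested beyond the values without it: 19 genes then met the rule, all 17 members among them.

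**Figure D3:**
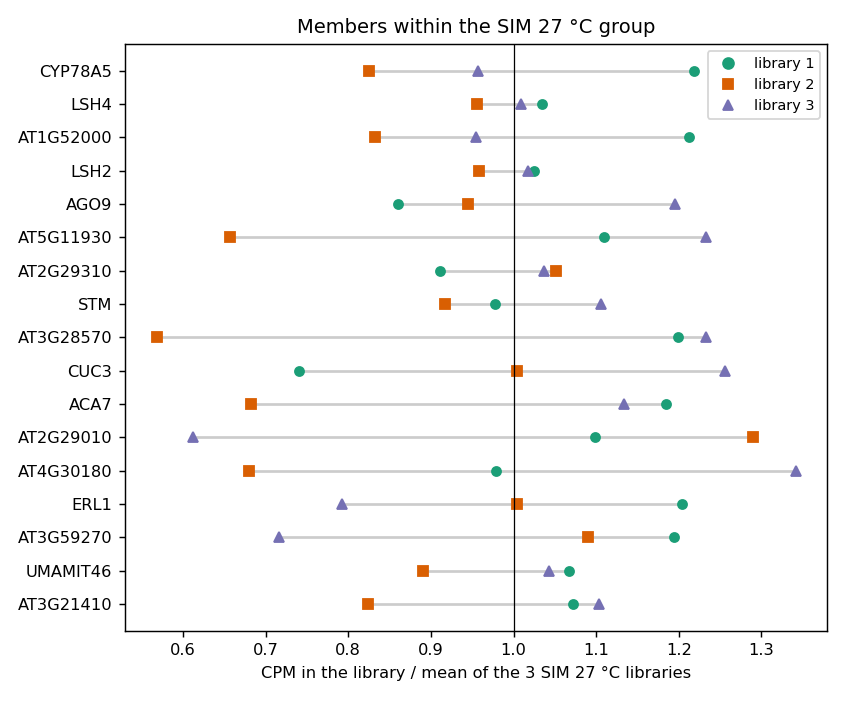
CPM of each member in libraries 1, 2 and 3 of SIM at 27 °C divided by the mean of the 3; the line at 1 is that mean. Library 2 (squares) is the lowest for 11 of the 17 members. LSH2 and LSH4 vary least, both by less than counting noise.

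The members were set beside their gene families, which were picked after the members' values were known. Relatives that are not members were tested with edgeR's quasi-likelihood test across all genes, and 20.7% of the 20704 genes tested were higher and 22.9% lower after SIM at 27 °C than at 17 °C. Of the other 8 LSH genes, LSH1 (AT5G28490) rose from 33.4 ± 0.932 to 68.6 ± 3.29 CPM (SD, n = 3 each; log2 change 1.01, edgeR adjusted p = 2.96e-12), and LSH10 (AT2G42610) rose by 0.33 on the log2 scale (edgeR adjusted p = 1.31e-04). LSH5 (AT5G58500) fell from 11.6 ± 0.927 to 1.502 ± 0.146 CPM (log2 change -2.95, edgeR adjusted p = 1.09e-11). LSH3 (AT2G31160), a paralog of LSH4, was at 36.6 ± 2.94 and 39.7 ± 0.798 CPM and did not pass (edgeR adjusted p = 0.492), nor did LSH6 (AT1G07090) and LSH9 (AT4G18610). LSH2 and LSH4 thus differed from LSH3, LSH6 and LSH9 in that these were present in all 5 groups, at 20.3 CPM or more.

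CUC3 was the lowest of the 3 CUC genes after SIM at both temperatures, in CPM not scaled for length. CUC1 (AT3G15170), which acts with CUC2 and CUC3 in boundaries, rose from 5.30 ± 1.00 to 35.5 ± 1.24 CPM (log2 change 2.70, edgeR adjusted p = 2.80e-15), and CUC2 (AT5G53950) from 48.9 ± 1.098 to 74.0 ± 1.63 CPM (log2 change 0.57, edgeR adjusted p = 1.09e-06). CUC2 was present on CIM at both temperatures, at 29.8 and 51.0 CPM, where CUC3 held 0 and 4 counts. Among the KNOX relatives of STM, KNAT2 (AT1G70510) rose from 9.20 ± 1.49 to 16.5 ± 1.16 CPM (log2 change 0.80, edgeR adjusted p = 4.88e-05). KNAT4 (AT5G11060) rose by 0.44 on the log2 scale (edgeR adjusted p = 0.00902, and 0.115 without library 2 of SIM at 27 °C). KNAT7 (AT1G62990) fell from 33.1 ± 0.86 to 12.9 ± 1.38 CPM (log2 change -1.38, edgeR adjusted p = 5.17e-12), and KNAT5 (AT4G32040) fell by 0.32 on the log2 scale (edgeR adjusted p = 0.000169). KNAT1 (AT4G08150), at 124 ± 5.84 and 121 ± 2.56 CPM, and KNAT6 (AT1G23380), at 75.4 ± 2.21 and 79.0 ± 1.26 CPM, did not pass (edgeR adjusted p = 0.278 and 0.675). STM was thus near 0 after SIM at 17 °C in libraries where KNAT1 and KNAT6 were abundant.

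The ERECTA family had 3 genes at low levels after SIM at 17 °C. ERECTA (ER, AT2G26330) rose from 2.09 ± 0.405 to 13.96 ± 1.96 CPM (log2 change 2.68, edgeR adjusted p = 4.83e-11), and ERL2 (AT5G07180) from 0.511 ± 0.496 to 17.39 ± 5.88 CPM (log2 change 4.99, edgeR adjusted p = 5.77e-08). ERL2 was already at 22.1 CPM after CIM at 27 °C, where ERL1 had 6 counts. In the CYP78A family, CYP78A7 (AT5G09970), which overlaps with CYP78A5 in function, rose from 0.264 ± 0.272 to 4.74 ± 1.79 CPM (log2 change 4.04, edgeR adjusted p = 8.40e-05) and was at 14.7 CPM after CIM at 27 °C. CYP78A9 (AT3G61880) went the other way, from 9.55 ± 1.22 to 5.98 ± 1.44 CPM (log2 change -0.70, edgeR adjusted p = 0.015), but missed the threshold in 5 of 12 alternatives, with adjusted p from 0.00356 to 0.0841. Of the ARGONAUTE genes, AGO3 (AT1G31290) rose from 4.94 ± 1.896 to 19.4 ± 0.543 CPM (log2 change 1.93, edgeR adjusted p = 2.15e-10). AGO4 (AT2G27040), a close relative of AGO9 that guides DNA methylation, rose by 0.24 on the log2 scale from 133 ± 2.22 CPM (edgeR adjusted p = 2.80e-05). Of 7 relatives of AGO9 tested, these 2 were higher and 4 lower, namely AGO10 (AT5G43810; log2 change -0.24), AGO6 (AT2G32940; -0.63), AGO2 (AT1G31280; -0.16) and AGO7 (AT1G69440; -0.18), with edgeR adjusted p of 1.71e-05, 0.00482, 0.0213 and 0.0327. AGO2 and AGO7 missed the threshold in 5 and 4 of 12 alternatives, with adjusted p up to 0.128 and 0.135.

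In the tandem cluster around UMAMIT46, UMAMIT41 (AT3G28050) and UMAMIT45 (AT3G28100) rose by 0.37 and 0.59 on the log2 scale (edgeR adjusted p = 1.41e-05 and 1.1e-07) from 51.9 ± 3.60 and 33.1 ± 1.06 CPM, as did UMAMIT44 (AT3G28130; log2 change 0.56, edgeR adjusted p = 8.85e-05). The pseudogene UMAMIT43-psi had 0 counts in every group and UMAMIT47 (AT3G28080) had 2 counts after SIM at 27 °C, where UMAMIT46 had 55. Of 3 other alpha carbonic anhydrase genes tested beside ACA7, 0 were higher and 2 (ACA2 and ACA3) lower. AT2G29320, in the same array as AT2G29310, rose from 3.12 ± 0.206 to 13.1 ± 1.27 CPM (log2 change 2.03, edgeR adjusted p = 5.89e-09) and was at 16.6 CPM after CIM at 27 °C. AT1G52100, of the lectin array that holds AT1G52000, fell from 40.2 ± 0.555 to 11.7 ± 1.37 CPM (log2 change -1.81, edgeR adjusted p = 2.78e-12), while AT1G52000 was at 0.495 and 21.2 CPM.

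**Figure D4:**
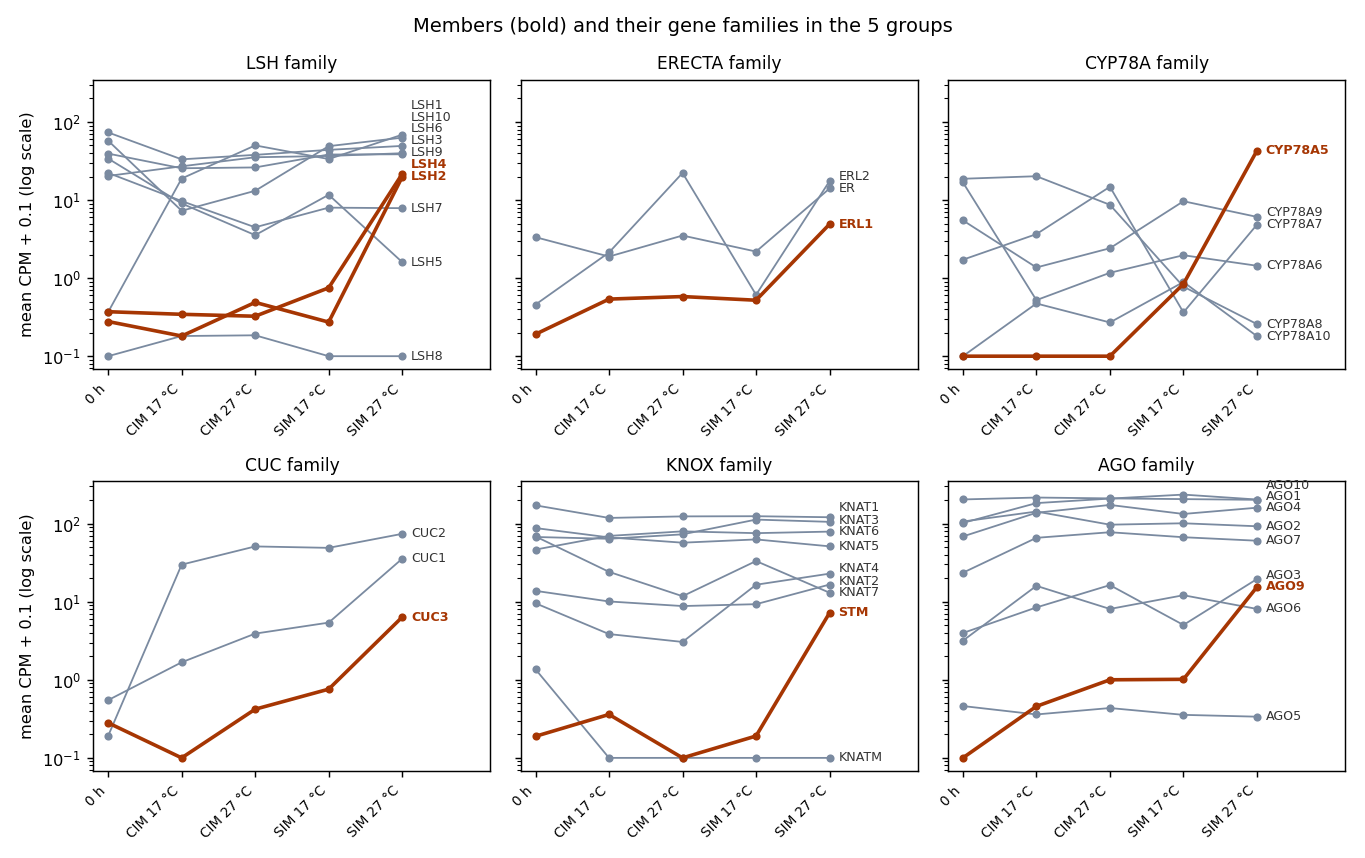
Mean level of 7 members (bold) and of the other genes of their families in the 5 groups, as CPM + 0.1 on a log axis; points are means of 3 libraries. Each member is low in 4 groups, whereas LSH3, KNAT1 and KNAT6 are not, and ERL2 and CYP78A7 are also high after CIM at 27 °C.

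Genes of 15 lists of meristem, organ, hormone, heat and tissue genes, with 183 genes in all, were then read without the 4 members they contain. WUS (AT2G17950), which had 0 counts at 0 h and on CIM, was at 6.01, 4.62 and 5.45 CPM after SIM at 17 °C and at 17.1, 12.3 and 16.0 CPM at 27 °C (log2 change 1.46, edgeR adjusted p = 2.72e-06). CYP78A5 likewise had 0 counts at 0 h and on CIM, but held 9 counts over SIM at 17 °C, where WUS held 64. CLV3 (AT2G27250), the stem cell signal peptide, had 5 counts after SIM at 17 °C and 26 at 27 °C, too few for the filter, and was not tested. Of 15 meristem regulators tested, 6 were higher and 2 lower after SIM at 27 °C than at 17 °C, with a median log2 change of 0.20 against -0.0047 over all genes. Over all genes tested, 20.7% were higher and 22.9% lower. The rule for named genes took ER, the homeodomain factor RPL (AT5G02030; 31.1 ± 3.86 to 64.8 ± 5.52 CPM), the receptor CLV1 (AT1G75820; 18.0 ± 0.818 to 35.5 ± 2.35 CPM) and HAM3 (AT4G00150; log2 change -0.71), a GRAS factor that keeps the meristem (edgeR adjusted p = 9.29e-11, 3.98e-09 and 1.25e-08 for the last 3).

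Boundary genes did not move in 1 direction. Of the 13 tested, 5 were higher and 5 lower, with a median log2 change of -0.02, against 20.7% higher and 22.9% lower over all genes. RAX1 (AT5G23000) and RAX2 (AT2G36890), MYB factors of axillary meristems, fell by 1.63 and 0.98 on the log2 scale (edgeR adjusted p = 1.03e-11 and 8.27e-10), in the libraries where CUC3 and LSH4 were high. Of 4 other CYP78A genes tested, 1 was higher and 1 lower, close to the shares over all genes. Of 16 leaf primordium and polarity genes, 11 were higher and 1 lower (median 0.17), with the smallest p for ARF4 (AT5G60450; 99.4 ± 3.90 to 143 ± 1.98 CPM, edgeR adjusted p = 3.25e-11), AS1, ZPR1 and KAN2.

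Against CIM at 27 °C, where 49.7% of genes tested differed (24.9% higher and 24.8% lower), 11 of the 15 meristem regulators were higher and 0 lower after SIM at 27 °C. Of the boundary genes 8 of 13 were higher and 0 lower (1 without library 3 of SIM at 27 °C), and of the leaf genes 12 of 16 were higher and 3 lower. This comparison shares the libraries of SIM at 27 °C with the one between temperatures. At 17 °C, where 48.1% of genes differed (24.7% higher on SIM and 23.4% lower), 8 of 15 meristem regulators and 9 of 13 boundary genes were higher on SIM, with 0 and 3 lower. The 3 lower boundary genes became 1 with DESeq2, without library 1 of CIM at 17 °C or without library 3 of SIM at 17 °C. The step from CIM to SIM itself differed between temperatures for 18.5% of genes tested (8.26% with the larger log2 change at 27 °C and 10.2% with the smaller). The members' own summed counts went from 30 to 92 over that step at 17 °C and from 44 to 2391 at 27 °C.

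Between the SIM groups, 20.7% of all genes were higher at 27 °C and 22.9% lower. Heat shock genes were higher after SIM at 27 °C than at 17 °C in 10 of 12 cases and lower in 1 (median log2 change 1.16), with HSP90.1 (AT5G52640) up from 56.8 ± 5.21 to 231 ± 11.7 CPM (log2 change 1.99, edgeR adjusted p = 1.29e-17). From CIM to SIM at 27 °C, 1 of the 12 heat shock genes rose (2 without library 3 of CIM at 27 °C) and 9 fell. The part of a heat response in the members' levels was not tested. Of the floral genes 4 of 9 were higher and 1 lower between temperatures, including PI (AT5G20240; log2 change 1.20, edgeR adjusted p = 6.62e-13), and of the stomatal genes 1 of 2 was higher (ICE1) and 1 lower. Of 8 auxin genes 2 were higher and 3 lower, with the smallest p for YUC4 (AT5G11320; log2 change 1.94, edgeR adjusted p = 9.22e-12). Of 12 cytokinin genes 0 were higher and 6 lower, with the smallest p for the receptor gene WOL (AT2G01830; log2 change -0.30, the list's median being -0.30; edgeR adjusted p = 9.75e-09). Of 8 gibberellin oxidases 1 was higher and 4 lower, with the smallest p for GA2OX6 (AT1G02400; log2 change -1.17, edgeR adjusted p = 1.32e-08). Of 7 greening genes 2 were higher and 0 lower, with the smallest p for LHCB4.2 (AT3G08940; log2 change 1.71, edgeR adjusted p = 6.11e-10), or 5 with only the groups compared in the fit.

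Markers of other tissues moved as well, beside 20.7% of all genes higher and 22.9% lower between the SIM groups. Epidermal genes had 2 of 12 higher and 7 lower (KCS6, AT1G68530, log2 change -1.19, edgeR adjusted p = 6.22e-09), and their summed level over 13 genes was 314 to 354 CPM after SIM at 17 °C and 269 to 304 CPM at 27 °C, with GL1 at 0 counts. Root markers had 1 of 8 higher and 5 lower (CASP1, AT2G36100, with 177 counts at 17 °C and 2 at 27 °C), with a summed level of 220 to 241 CPM and 216 to 222 CPM and no gene at 0. Phloem genes had 0 of 4 higher and 2 lower (NAC086, AT5G17260, log2 change -0.88, edgeR adjusted p = 2.59e-07), at 255 to 262 and 236 to 244 CPM. The 6 seed maturation markers were at 0.721 CPM or less in sum in every SIM library, and none passed the filter. The stomatal list summed to 69.9 to 84.5 CPM at 17 °C and 85.3 to 87.3 CPM at 27 °C, with EPF1, EPF2 and STOMAGEN at 0 counts in the latter. The part of such differences in tissue in the levels of the members was not tested.

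**Figure D5:**
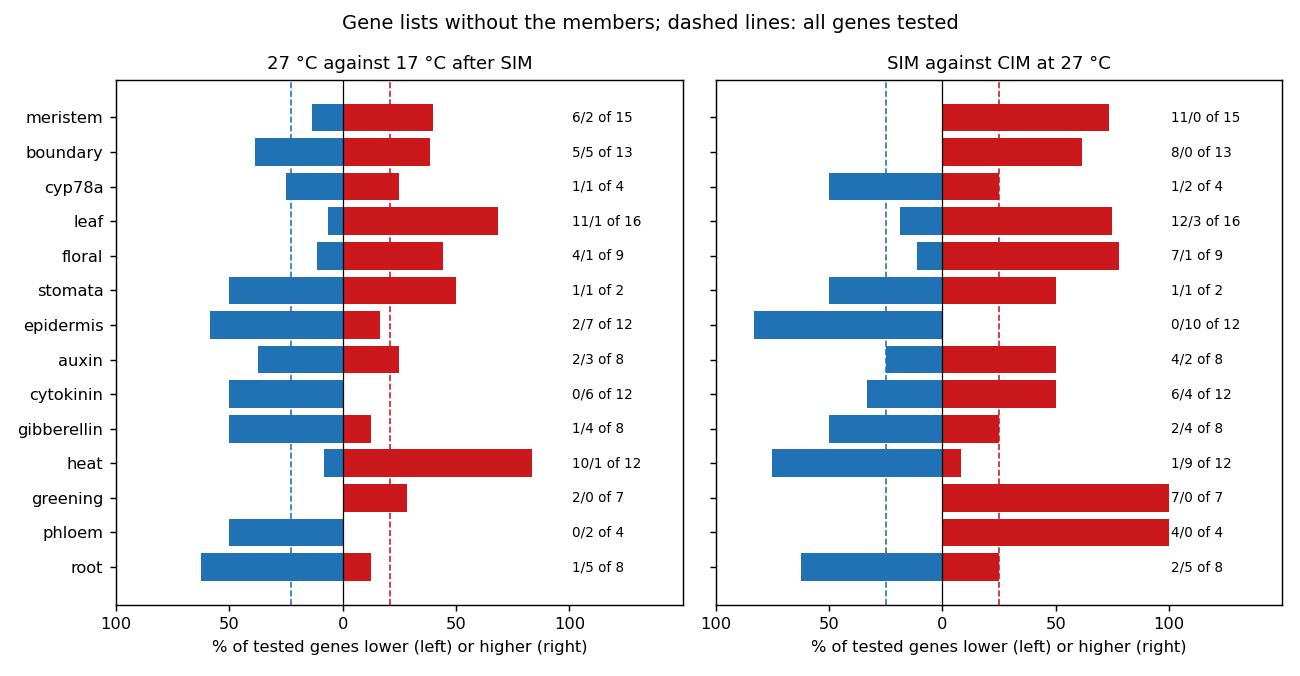
Share of tested genes of each list, members left out, that were higher (right, red) or lower (left, blue) by edgeR's test, in SIM at 27 °C against SIM at 17 °C and in SIM against CIM at 27 °C; numbers give higher/lower of tested, and dashed lines give the shares over all 20704 genes. Leaf and heat genes were mostly higher between temperatures (11 and 10 genes), and boundary genes divided 5 to 5.

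The members lay on all 5 chromosomes, 5, 2, 6, 1 and 3 of them on chromosomes 1 to 5. Of the 34 genes next to a member, none overlapped it and 23 were tested, of which 6 were higher and 6 lower after SIM at 27 °C than at 17 °C (52.2%, against 43.6% of all genes), with a median log2 change of 0.04. THA2 (AT3G04520), a threonine aldolase gene 281 bases from LSH2, rose from 15.68 ± 1.73 to 48.9 ± 2.20 CPM (log2 change 1.60, edgeR adjusted p = 1.69e-15), but was at 62.0 CPM after CIM at 27 °C, where LSH2 had 5 counts. AT3G28560, next to AT3G28570, rose from 1.84 ± 0.726 to 6.61 ± 1.87 CPM (log2 change 1.79, edgeR adjusted p = 9.60e-05). It was at 1.35 CPM at 0 h and at 0.163 and 0.315 CPM after CIM at 17 °C and 27 °C, where AT3G28570 was low too. Whether reads were shared between them was not tested. ATL8 (AT1G76410), next to CUC3, fell from 52.5 ± 1.44 to 19.1 ± 0.709 CPM (log2 change -1.49, edgeR adjusted p = 3.44e-16). These 3 neighbours were singled out after their values were seen.

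The median span of the members was 1556 bases, against 2282 for the 17568 protein coding genes at 4 CPM or more after SIM at 27 °C and 1918 for all 27206 nuclear protein coding genes. Of the 17 members, 6 were longer than 2282 bases. The 16 protein coding members had a median of 3.5 exons against 5, and 5 of them (LSH2, AT5G11930, AT3G28570, AT4G30180 and AT3G21410) had 1 exon, which 12.7% of those genes had. The most exons were in ERL1 with 27, AGO9 with 23 and the pseudogene AT2G29010 with 13. These values were not tested.

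The 9 motifs were searched in the promoters of all 17 members. The window ran from 250 bases before to 50 after the RefSeq start, both strands were read, and overlaps between motifs were allowed, with all 26719 protein coding genes as the background. TTAATGG was in 3 of 17 members (CYP78A5, AT3G28570 and ERL1) and in 8.15% of all promoters. TGACAGNT, a KNOX motif, was in 2 members (LSH2 and ERL1) and 2.49% of all. The 250 bases before LSH2 and those before AT2G29310 each held exon bases of 1 other gene. CCANTG was in 4 (25.6% of all), the CArG outline in 4 (21.5%), the TCP core GGNCCC in 2 (8.72%) and the auxin response element TGTCTC in 2 (14.1%). The heat shock element GAANNTTC was in 1 member, AT3G28570 (11.5% of all). The G-box CACGTG (7.79% of all) and the auxin response element TGTCGG (5.12%) were in 0 members. A match is a description of letters and no site, and its absence says only that these letters are not in this window. The 250 bases before the start had a median GC content of 30.8% in the members and 31.6% in the expressed protein coding genes, with 24.8% in CYP78A5, 25.2% in LSH4, 29.2% in STM and 37.2% in CUC3.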

How the data were processed

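RNA was extracted with RNeasy columns and made into libraries with the KAPA Stranded mRNA-seq kit, per the labels' protocols. The authors deposited 1 table of raw read counts per gene for the 15 libraries, with gene coordinates. The submitters' processing notes name FastQC 0.11.7, Bowtie2 2.3.4.3, SAMtools 1.9, bedtools 2.26.0 and the TAIR10 build. The role of each tool, strand, duplicates and reads that fit several places are not given in the sources used here. Bowtie2 does not split reads over introns, so where it made the alignments, reads across exon junctions can be lost.

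Counts were divided by column totals to give CPM, and the rule was applied to group means. The members and lists were chosen with earlier results of these data known, so no p-value of a member is given, although members were in the fit over all genes. Other genes were tested with edgeR 4.0.16 (quasi-likelihood test, robust, TMM, filterByExpr, all 15 libraries in 1 fit, Benjamini-Hochberg adjustment over the 20704 genes kept, threshold 0.05) in R 4.3.3; all 17 members passed the filter. All members are named; WUS, CLV3 and the CUC genes are named in any case, and others come from the up to 4 genes of each list with the smallest p among those called between the SIM groups. Relatives and neighbours of members were picked after values were seen. Ratios of counts carry exact conditional binomial 95% intervals, and a ratio to 0 counts is a bound at the floor of 3 counts over the group. Of the table's genes, 32835 matched RefSeq TAIR10.1 by locus tag and 99.997% of these overlapped; promoters were read from that assembly. On simulated counts for SIM at 27 °C against 17 °C over 19171 genes, edgeR recovered 76% of 50 genes changed 1.5-fold, 96% at 2-fold and 100% at 4-fold and 8-fold, with 8 false calls. The simulation held only the SIM libraries and gave every gene the same small spread. Its figures are thus a check of the code and not rates for the fit of all 15 libraries. DESeq2 1.42.0, other scalings, filters, limits, a replicate block and leaving out each library were alternatives.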

Additional observations from a re-analysis of the deposited data

Results flagged for a closer look

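For genes beside the members, the change from CIM to SIM was compared between 27 °C and 17 °C with an interaction term in edgeR's quasi-likelihood test over all 20704 genes, of which 18.5% differed (8.26% higher at 27 °C and 10.2% lower). Values are log2 differences, the change at 27 °C minus that at 17 °C. No values are given for members, whose rule used these groups.

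Among meristem and boundary genes, the difference was 1.81 ± 0.457 (SE) for ER (edgeR adjusted p = 0.00385), 1.34 ± 0.166 for CLV1 (1.68e-07), 1.45 ± 0.447 for CUC1 (0.0189), 0.57 ± 0.149 for RAX2 (0.011) and -0.38 ± 0.135 for LSH1 (0.0427). Without library 1 or 2 of CIM at 17 °C, CUC1 missed the threshold (edgeR adjusted p = 0.12 and 0.0785). Among leaf and organ growth genes it was 0.26 ± 0.0681 for ARF4 (0.0122), -0.47 ± 0.0861 for AS1 (9.45e-05), 0.47 ± 0.163 for KAN2 (0.0441) and -1.50 ± 0.512 for CYP78A9 (0.0369). Of 18 alternatives, LSH1 missed the threshold in 13, KAN2 in 10 and CYP78A9 in 9, with adjusted p up to 0.339, 0.207 and 0.109.

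Among relatives of members it was -1.54 ± 0.368 for LSH5 (edgeR adjusted p = 0.00263), 1.01 ± 0.267 for AGO3 (0.00556), 0.44 ± 0.0678 for AGO2 (8.43e-06), -0.39 ± 0.0802 for AGO7 (0.00147), -0.40 ± 0.0605 for AGO10 (5.91e-06), 1.05 ± 0.23 for KNAT2 (0.000922) and 0.47 ± 0.101 for UMAMIT41 (0.00101). Among the other lists it was 1.83 ± 0.0822 for HSP90.1 (3.14e-14), 1.36 ± 0.304 for LHCB4.2 (0.00126, and 0.0707 without library 3 of CIM at 17 °C), 0.44 ± 0.125 for ICE1 (0.0112, but 0.0526 with DESeq2 and 0.136 without library 2 of CIM at 17 °C), -1.39 ± 0.13 for KCS6 (1.67e-08), -0.77 ± 0.168 for GA2OX6 (0.000804) and -1.51 ± 0.248 for NAC086 (1.97e-05).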

How the results depend on the processing

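The number of genes that met the rule was 55 with a lower limit of 2 CPM, 5 with 8 CPM, 8 with an upper limit of 0.5 CPM, 61 with 2 CPM, and 6 with the limits required of every library. It was 16 to 20 with 1 library left out, 19 with TMM scaling and 20 with DESeq2 size factors. Counting only the 250 bases before the start, GGNCCC and TGACAGNT were each in 1 member. With 2 neighbours on each side 19 were called, and with 1 library left out 10 to 12 were. Over all genes, calls between the SIM groups numbered 9037, 7231 with DESeq2, 9018 with the replicate block and 7916 to 8206 with 1 library left out. From CIM to SIM they numbered 10284, 8556, 10262 and 9310 to 9393 at 27 °C and 9955, 8427, 9903 and 9023 to 9344 at 17 °C, and for the difference 3827, 2902, 3793 and 3285 to 3719. Deviations from the group means correlated at -0.19 to 0.0652 over 30 same-numbered pairs of libraries and at -0.0897 to 0.181 over 60 others. Between the SIM groups, same-numbered pairs were at 0.0162, 0.0652 and 0.0608, and the others at -0.0897 to 0.03. Whether a shared number marks a shared culture or batch is not labelled and was not tested. The block gave 13 neighbour calls.

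Of 100 alternative counts 92 stayed within 1.5 times the main one. Of 2803 alternative values for named genes, 73 calls were lost, 14 gained and 0 reversed, in 25 of 208 results. Of 1620 alternative counts of list genes, 105 moved by more than 1.5 times. Between the SIM groups these were CYP78A genes lower (0 with DESeq2 or without library 1 or 3 at 17 °C or 2 or 3 at 27 °C), leaf lower (2) and stomata lower (3) without a filter, gibberellin higher (2) and greening higher (5) with only the groups compared, auxin lower (1) without library 3 at 17 °C, epidermal higher (1) without library 1 at 27 °C and floral lower (2) without library 3 at 27 °C. The causes were not tested. Outside SIM at 27 °C, the members' levels rest on few counts.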
